A study of Mus musculus with 13 samples.

Results

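The complement genes C3, C4b, C2, Cfb, Cfp, C1ra, C1s1, Serping1 and C3ar1 were followed in the RNA of 13 mouse aortas. These 9 genes were chosen by name as complement components and regulators of the vessel wall, from 54532 genes in the count table, and all 9 passed the filter on low counts that left 15811 genes for testing. Both groups were ApoE-/- mice, 10 weeks old at the start, that received angiotensin II (AngII, 1000 ng/kg/min) from a subcutaneous pump for 28 days, which is a model of abdominal aortic aneurysm. The 6 Ad-sham mice received 5 tail vein injections of an adenoviral vector without Fam3a, and the 7 Ad-FAM3A mice received as many injections of the vector with mouse Fam3a behind the broadly active EF1A promoter. The virus was given into the blood, so it was not restricted to the aorta, and no group without AngII or without virus was analysed here. Nothing in the labels says whether an aorta was pooled from several mice, so the p-values measure the spread between these 13 libraries.

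Complement is a cascade of secreted proteins that marks surfaces for removal. In the classical pathway, C1q binds a target and activates the proteases C1r and C1s, which cleave C4 and C2 into an enzyme that cleaves C3. In the alternative pathway, factor B (Cfb) takes the place of C2, factor D (Cfd) cleaves it and properdin (Cfp) stabilizes the enzyme. Serping1 encodes the C1 inhibitor, which blocks C1r and C1s, and C3ar1 encodes the receptor of the released C3a fragment. The liver makes most of the plasma proteins, while fibroblasts, macrophages and adipocytes also transcribe many of the genes locally.

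C1ra and C1s1 have near-identical copies, C1rb and C1s2, on the same stretch of mouse chromosome 6, and these are shown first because a read can be assigned to a copy only where the letters differ. Over the aligned coding sequence C1ra and C1rb were 98.0% identical and C1s1 and C1s2 were 95.7% identical. The first 100 coding bases of each are printed 5′ to 3′ from the GENCODE M21 transcripts, build GRCm38, with the bases that differ within a pair in capitals.
C1ra: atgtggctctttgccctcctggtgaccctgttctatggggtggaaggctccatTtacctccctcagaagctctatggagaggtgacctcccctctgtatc
C1rb: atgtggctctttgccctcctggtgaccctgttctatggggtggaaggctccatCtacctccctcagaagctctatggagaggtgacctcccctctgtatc
C1s1: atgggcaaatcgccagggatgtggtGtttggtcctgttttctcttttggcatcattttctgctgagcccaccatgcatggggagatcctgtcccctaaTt
C1s2: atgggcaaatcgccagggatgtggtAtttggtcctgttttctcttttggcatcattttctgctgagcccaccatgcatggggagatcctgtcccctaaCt
These coding bases lie at chr6:124512799-124513749 (+ strand) for C1ra, chr6:124570457-124571453 (+) for C1rb, chr6:124540920-124541355 (- strand) for C1s1 and chr6:124635613-124636049 (-) for C1s2, and each interval also holds intron. The first pair differed at 1 of the 100 bases and the second at 2. Of all stretches of 150 bases, the read length, in the C1ra coding sequence, 34.3% occurred unchanged in C1rb, against 4.13% for C1s1 in C1s2. For C4b, 8.52% of the stretches occurred in C4a, which was compared by its transcript. Between C2 and Cfb, with 60.4% identity, and between C3 and C4b, with 60.8%, no stretch of that length was shared. How the authors' counting treated reads that fit several places is not given in the sources used here, so the values of C1ra, C1s1 and C4b carry that uncertainty.

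A second overlap concerned C2 and Cfb, which are neighbours on chromosome 17. The annotation places a read-through gene, Gm20547 (chr17:34856412-34882042, - strand), over both of them on the same strand. It shared 2246 of the 2825 exonic bases of Cfb (79.5%). Of the exonic bases of C2, 1817 of 3872 (46.9%) were shared with Gm20547 or with Zbtb12. Gm20547 was listed at 0 in all 13 aortas, and 100% of its exonic bases are shared. C1s1 shared 18.4% of its exonic bases with Gm16567 on the opposite strand, and C3, C4b, Cfp, C1ra, Serping1 and C3ar1 shared none. Whether the counting used strand is likewise not given in the sources used here.

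The remaining positions are, in GRCm38, chr17:57203970-57228136 for C3, chr17:34728380-34743882 for C4b, chr17:34862604-34898265 for C2, chr17:34856374-34862518 for Cfb and chrX:20925454-20931555 for Cfp, all on the - strand. C1ra spans chr6:124512405-124523443 on the + strand. C1s1 spans chr6:124530345-124542359, C3ar1 spans chr6:122847138-122856161 and Serping1 spans chr2:84765387-84775444, all on the - strand. C4b, C2 and Cfb lie in the same cluster of chromosome 17, and C3ar1, C1ra and C1s1 are on chromosome 6. Start, end and exonic length of these genes were the same in the deposited table and in GENCODE M21.

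The RefSeq promoter table (GRCm38.p6) held C3, Cfp, C1ra, C1s1 and C3ar1 of the 9, and not C4b, C2, Cfb and Serping1. The upstream 250 bases are shown for C3, the member with the highest level, and for C1s1 beside its copy C1s2, because the pair differed in how its counts varied between aortas. Capitals mark matches to any of 4 motifs searched on both strands from 250 bases before to 50 after the start: TTCNNNGAA, a STAT motif that is its own reverse complement, GAAANNGAA for interferon response, GGANTTTCC for NF-kappaB and TTGCNNAA for C/EBP. The intervals are chr17:57228137-57228386 (-), chr6:124542360-124542609 (-) and chr6:124636086-124636335 (-).
C3: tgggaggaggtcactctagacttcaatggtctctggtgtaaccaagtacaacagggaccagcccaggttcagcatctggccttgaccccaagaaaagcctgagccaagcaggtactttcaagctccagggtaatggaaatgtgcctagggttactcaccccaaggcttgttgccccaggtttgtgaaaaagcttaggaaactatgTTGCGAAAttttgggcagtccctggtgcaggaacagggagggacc
C1s1: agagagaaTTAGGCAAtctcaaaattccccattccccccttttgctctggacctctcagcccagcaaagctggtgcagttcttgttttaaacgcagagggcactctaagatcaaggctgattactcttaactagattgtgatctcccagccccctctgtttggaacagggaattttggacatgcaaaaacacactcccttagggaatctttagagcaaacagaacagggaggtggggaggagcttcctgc
C1s2: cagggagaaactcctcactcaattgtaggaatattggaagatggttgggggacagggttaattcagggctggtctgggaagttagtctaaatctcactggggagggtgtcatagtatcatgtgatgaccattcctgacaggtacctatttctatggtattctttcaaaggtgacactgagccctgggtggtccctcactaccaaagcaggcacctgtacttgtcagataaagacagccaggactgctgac
With positions counted from the start, C3 held 1 match, to the C/EBP letters, at -45 to -38. C1s1 held 1 C/EBP match at -242 to -235 from the first of its 2 annotated starts, the one printed. The window of its other start (upstream interval chr6:124542322-124542571) held none of the 4 motifs. C1ra held a STAT match and a C/EBP match after its start, at 32 to 40 and 16 to 23. The same letters stood before the annotated start of C1rb, at -119 to -111 and -135 to -128. Cfp, C3ar1 and C1s2 held none of the 4 motifs in this window. Over 32851 promoters the STAT letters occurred in 8.30%, the interferon letters in 8.56%, the NF-kappaB letters in 1.25% and the C/EBP letters in 10.8%, so single matches of this kind are common and are given as a description.

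Total counts per aorta ranged from 14481179 to 19797407. Fam3a was 17.9 to 30.3 CPM (a gene's count relative to the TMM-scaled library total) in the Ad-sham aortas and 18.5 to 29.8 CPM in those labelled Ad-FAM3A, and the difference was -0.03 ± 0.16 (SE, log2 scale, adjusted p = 0.971). The paper names the insert as a mouse Fam3a transcript, so reads from its coding part would match this gene. The counts therefore showed no rise of Fam3a under the Ad-FAM3A label, and the reason was not tested. Apoe, the deleted gene, was at 3.57 to 20.5 CPM. All 6 smooth muscle markers had counts in every aorta, with a summed level of 2860 to 12599 CPM in Ad-sham and 2165 to 17827 CPM in Ad-FAM3A. Several aortas stood out for transcripts of other cell types or organs, and where these came from was not tested. The 5 B cell markers had summed levels of 9083 CPM in Ad-FAM3A6, 2791 CPM in Ad-FAM3A7 and no more than 131 CPM in any other aorta. The albumin transcript Alb was at 319 CPM in Ad-FAM3A1 against at most 66.7 elsewhere. Kap, a kidney transcript, exceeded 100 CPM in Ad-sham3, Ad-sham6 and Ad-FAM3A3. In bulk RNA, fewer cells of a type and less RNA per cell cannot be told apart.

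The order of the 9 genes by level was much the same in every aorta, with C3 and Serping1 in the first 2 places and Cfb in the last in all 13. Levels between genes are given only as FPKM (CPM divided by exonic length in kilobases). By the median over the 13 aortas, C3 was highest at 257 FPKM, followed by Serping1 at 209, C4b at 71.9, C1s1 at 42.2, C1ra at 27.1, Cfp at 24.6, C2 at 4.69, C3ar1 at 4.55 and Cfb at 0.289. Serping1 exceeded C4b by 3.03-fold on average, C4b exceeded C1s1 by 1.62-fold, C1s1 exceeded C1ra by 1.5-fold, Cfp exceeded C2 by 6.04-fold and C3ar1 exceeded Cfb by 17-fold. Each of these 5 steps had the same direction in 13 of 13 aortas (two-sided exact sign-flip permutation test over aortas, p = 0.000244, which is the smallest it can give, and 0.000391 after Benjamini-Hochberg adjustment over the 8 steps). The order was set by these same values, so the pairs tested and their direction were not chosen beforehand. The other 3 neighbours did not differ beyond their spread. C3 was above Serping1 in 8 of 13 aortas (1.24-fold, adjusted p = 0.227), C1ra above Cfp in 7 (1.13-fold, adjusted p = 0.511) and C2 above C3ar1 in 7 (0.878-fold on the log scale, adjusted p = 0.553) by the same exact permutation test.

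**Figure D1:**
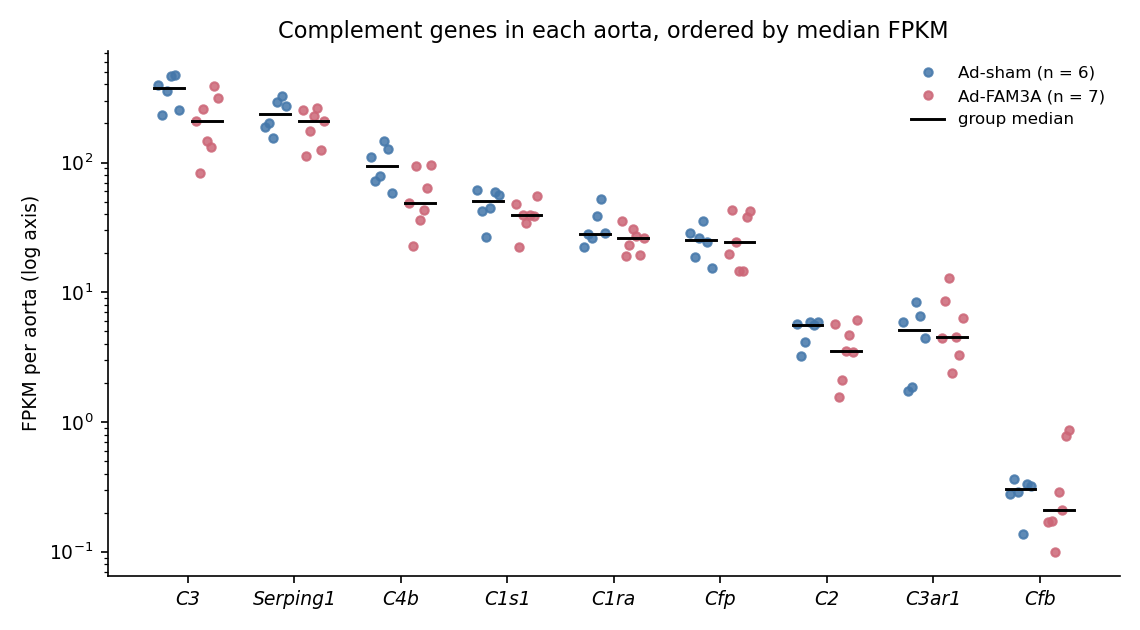
FPKM (log axis) of the 9 complement genes in each aorta, ordered by their median over all 13, with Ad-sham (n = 6) in blue, Ad-FAM3A (n = 7) in red and the group median as a black line. The groups overlap for every gene, the Ad-FAM3A median is the lower one for all 9 genes, and 2 Ad-FAM3A aortas stand above the rest for Cfb.

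With only the exonic bases that no other gene shares as length, the median was 8.84 in place of 4.69 FPKM for C2 and 1.41 in place of 0.289 FPKM for Cfb, and Cfb remained the lowest of the 9. On that length C2 remained 3.21-fold below Cfp (exact sign-flip adjusted p = 0.000651) and was 1.65-fold above C3ar1 (adjusted p = 0.0589, exact sign-flip test), and C3ar1 was 3.49-fold above Cfb, higher in 11 of 13 aortas (adjusted p = 0.00195, exact sign-flip test). C4b was then 1.32-fold above C1s1, higher in 8 of 13 aortas (adjusted p = 0.0551, exact sign-flip test), so that step no longer passed. These pairs again came from the order of the values tested. Several complement genes outside the 9 were at similar or higher levels. Cfd, the factor D gene that adipocytes make in large amounts, had a median of 2147 FPKM, above every member. Clu (241 FPKM), a fluid-phase regulator, and C7 (65.3 FPKM), a terminal component, lay in the range of Serping1 and C4b. The C1q chains C1qa, C1qb and C1qc, which macrophages transcribe, were at 61.5, 132 and 45.5 FPKM.

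None of the 9 complement genes passed the test between the groups. In the edgeR quasi-likelihood fit, adjusted by the Benjamini-Hochberg method across 15811 genes, 0 of 9 were called at an adjusted p under 0.05, as were 0 of all genes tested (0.00%). At an unadjusted p under 0.05 there were 2 of 9, both lower in Ad-FAM3A, beside 5.91% of all genes in either direction and 2.93% of all genes in the lower direction. DESeq2 and limma-voom also called 0 of the 9, and DESeq2 called 10 genes in all (0.0516% of the genes it adjusted), none of them in the complement list. No member had groups that did not overlap in CPM, beside 0.0949% of all genes tested. Of the 9 genes 6 had a lower and 3 a higher estimate in Ad-FAM3A. Their median log2 fold change was -0.29, while the median of all genes tested was 0.00 and 49.6% of them had a lower estimate.

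C3, which the convertases cleave, and C4b, whose product becomes part of a convertase, had the largest differences of the 9. C3 was 1190, 1936 and 2448 CPM (lowest, median and highest) in the 6 Ad-sham aortas and 427, 1082 and 2001 CPM in the 7 Ad-FAM3A aortas, with means of 1868 ± 533 (SD, n = 6) and 1127 ± 562 (SD, n = 7). The groups overlapped, with Ad-FAM3A6, Ad-FAM3A7 and Ad-FAM3A3 at 2001, 1629 and 1322 CPM among the Ad-sham values, and 6 of 7 Ad-FAM3A aortas were below the Ad-sham median. The log2 fold change was -0.73 ± 0.34 (SE; edgeR p = 0.0473, adjusted p = 0.810), and the two-sided exact permutation test over all assignments of aortas to groups gave p = 0.0408 before any adjustment. C4b was 330, 536 and 831 CPM in Ad-sham and 129, 276 and 542 CPM in Ad-FAM3A, again lowest, median and highest. Its means were 562 ± 198 (SD, n = 6) and 327 ± 160 (SD, n = 7), and 6 of 7 Ad-FAM3A aortas lay below the Ad-sham median. The log2 fold change of C4b was -0.78 ± 0.33 (SE; edgeR p = 0.0335, adjusted p = 0.810, exact permutation p = 0.0379).

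The aorta Ad-FAM3A2 had the lowest value of both genes, and without it the log2 fold changes were -0.56 for C3 (adjusted p = 0.565) and -0.62 for C4b (adjusted p = 0.558), neither with an unadjusted p under 0.05. An unadjusted p under 0.05 was also lost for both genes without Ad-sham1, Ad-sham4, Ad-sham5, Ad-FAM3A1, Ad-FAM3A4 or Ad-FAM3A5. Without Ad-FAM3A6 and Ad-FAM3A7 the difference in C3 was larger, at -1.15 on the log2 scale (adjusted p = 0.776). Over the 13 fits that each left out 1 aorta, the estimate stayed negative, from -0.94 to -0.56 for C3 and from -0.94 to -0.62 for C4b. The unadjusted p ranged from 0.0104 to 0.103 and from 0.0126 to 0.0855. C4a, the near-identical copy of C4b, was too low for the filter, at 0 to 33 counts per aorta.

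White adipocyte and fibroblast transcripts also had lower estimates in Ad-FAM3A, without passing the test. All 5 of the 5 white adipocyte markers and 6 of the 6 fibroblast markers had lower estimates in Ad-FAM3A, with medians of -0.68 and -0.28 on the log2 scale, and 0 of either list was called. The adipocyte markers summed to 2176 to 7998 CPM in Ad-sham and 1454 to 4609 CPM in Ad-FAM3A, and the fibroblast markers to 2776 to 7874 and 1751 to 5360 CPM, with every marker of both lists counted in every aorta. The 6 smooth muscle markers all had higher estimates, with a median of 0.33, and the 4 mesothelium markers had lower ones, with a median of -1.97 that came with summed levels of 1.82 to 132 CPM in Ad-sham and 2.12 to 23.6 CPM in Ad-FAM3A. Other lists also had 1 direction: estimates were lower for 4 of 4 brown adipocyte (median -0.77), 4 of 4 Schwann cell (-0.70), 4 of 4 sympathetic neuron (-0.64), 4 of 4 tested neutrophil (-0.41), 3 of 3 tested kidney tubule (-1.27) and 3 of 3 tested cardiac muscle markers (-0.76), and higher for 5 of 5 B cell (2.29), 5 of 5 T cell (1.37) and 5 of 5 tested hepatocyte markers (1.41), with 0 called. The white adipocyte list itself holds the complement gene Cfd. The part of these cell types in the difference was not tested.

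C2, Cfb and Cfp complete the convertases. C2, the classical pathway partner of C4, was 12.4, 21.8 and 22.9 CPM in Ad-sham and 6.02, 13.7 and 23.6 CPM in Ad-FAM3A. The lowest and the highest of the 13 values, Ad-FAM3A2 and Ad-FAM3A7, were in the same group, and the log2 fold change was -0.39 ± 0.29 (SE, adjusted p = 0.821, exact permutation p = 0.163). Without Ad-FAM3A2 the C2 value was -0.23. Cfb was close to the limit of counting, at 6 to 20 counts in Ad-sham and 4 to 42 counts in Ad-FAM3A. It was 0.385, 0.860 and 1.03 CPM in Ad-sham and 0.282, 0.589 and 2.43 CPM in Ad-FAM3A. The highest values, 2.2 and 2.43 CPM, came from Ad-FAM3A6 and Ad-FAM3A7, the aortas with B cell transcripts, and the other 5 Ad-FAM3A aortas were at 0.282 to 0.816 CPM. The log2 fold change of Cfb was 0.36 ± 0.50 (SE, adjusted p = 0.887) over all aortas and -0.60 without those 2 (adjusted p = 0.791), so its direction rested on them. The size over all aortas also depended on the method: it was 0.04 by limma-voom, and the difference of mean log2 CPM was 0.038 (exact permutation p = 0.932). All 5 B cell markers were counted in every aorta, and their part in the Cfb value was not tested.

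Cfp, which encodes properdin, was 26.9, 43.9 and 61.8 CPM in Ad-sham and 25.3, 42.7 and 74.6 CPM in Ad-FAM3A. The log2 fold change was 0.18 ± 0.29 (SE, adjusted p = 0.902, exact permutation p = 0.765), and it was -0.091 without Ad-FAM3A6 and Ad-FAM3A7. In the fits without 1 aorta it ranged from 0.069 without Ad-FAM3A2 to 0.31 without Ad-sham4. The 3 highest Ad-FAM3A values were 74.6, 73.0 and 66.1 CPM, in Ad-FAM3A2, Ad-FAM3A7 and Ad-FAM3A6, and all 3 were above every Ad-sham aorta. The other 4 lay within the Ad-sham range or just below it.

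The proteases C1ra and C1s1 and their inhibitor Serping1 had smaller differences. C1ra was 66.9, 84.5 and 156 CPM in Ad-sham and 56.3, 77.9 and 106 CPM in Ad-FAM3A, a log2 fold change of -0.34 ± 0.21 (SE, adjusted p = 0.812, exact permutation p = 0.180). C1s1 was 83.1, 157 and 191 CPM in Ad-sham and 69.5, 124 and 174 CPM in Ad-FAM3A, and 6 of 7 Ad-FAM3A aortas were below the Ad-sham median (log2 fold change -0.28 ± 0.22 SE, adjusted p = 0.830, exact permutation p = 0.280). Serping1 was 358, 549 and 752 CPM in Ad-sham and 262, 485 and 607 CPM in Ad-FAM3A, with a log2 fold change of -0.29 ± 0.24 (SE, adjusted p = 0.832, exact permutation p = 0.247). For all of these the highest of the 13 values was in an Ad-sham aorta and the lowest in Ad-FAM3A2, and the groups overlapped over most of their range. The 95% intervals of the log2 fold change were -0.79 to 0.11 for C1ra, -0.75 to 0.19 for C1s1 and -0.81 to 0.23 for Serping1. Single aortas moved these values: C1ra was -0.16 without Ad-sham5, C1s1 was -0.16 without Ad-FAM3A2, and Serping1 was -0.19 without Ad-sham5 and -0.17 without Ad-FAM3A2.

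C3ar1, the C3a receptor of myeloid cells, was 7.45, 22.2 and 35.9 CPM in Ad-sham and 10.2, 19.6 and 55.2 CPM in Ad-FAM3A. It had the largest SD of log2 CPM over the aortas among the 9, 0.87, larger than that of 84.1% of the genes tested. Its lowest and highest aorta differed 7.41-fold, less than the 8.63-fold of the low-count Cfb, whose log2 SD is held down by the added prior count. The log2 fold change was 0.33 ± 0.43 (SE, adjusted p = 0.879, exact permutation p = 0.474). Its size depended on single aortas, at 0.061 without Ad-FAM3A3, 0.16 without Ad-sham2, 0.17 without Ad-sham3 and 0.56 without Ad-sham4. Without Ad-sham3, Ad-sham6 and Ad-FAM3A3, the aortas with Kap above 100 CPM, it was -0.19. C1ra had the smallest SD, 0.41, and 2.78-fold between its extremes.

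The copies C1rb and C1s2 varied between aortas in another way than the members beside them. C1rb had at most 7 counts in 5 aortas, namely Ad-sham1, Ad-sham2, Ad-sham6, Ad-FAM3A2 and Ad-FAM3A7, and 19 to 676 counts in the other 8. For C1s2 those 5 aortas held 1 to 7 counts, and the remaining 8 held 46 to 315. In the same 2 sets, C1ra had 916 to 1378 and 941 to 3347 counts and C1s1 had 1131 to 3002 and 1317 to 3947, so neither member fell into separate ranges. By FPKM, C1rb reached 45.7% of C1ra in Ad-sham4 and at most 6.67% elsewhere, while C1s2 reached 12.1% of C1s1 in Ad-sham3. The 5 aortas were 3 of 6 Ad-sham and 2 of 7 Ad-FAM3A, and this split was noticed in the values and is given as a description. The log2 fold changes were -2.58 ± 1.24 (SE, adjusted p = 0.810) for C1rb and -1.01 ± 1.03 (SE, adjusted p = 0.854) for C1s2. Without Ad-sham4 that of C1rb was -0.56 ± 1.07 (SE, adjusted p = 0.878), so its size rested on 1 aorta. Without Ad-sham5 that of C1s2 was -0.45 ± 1.08 (SE, adjusted p = 0.958). It was -0.76 without Ad-sham4 and -1.26 without Ad-sham2, so the size for C1s2 depended on more than 1 aorta.

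**Figure D2:**
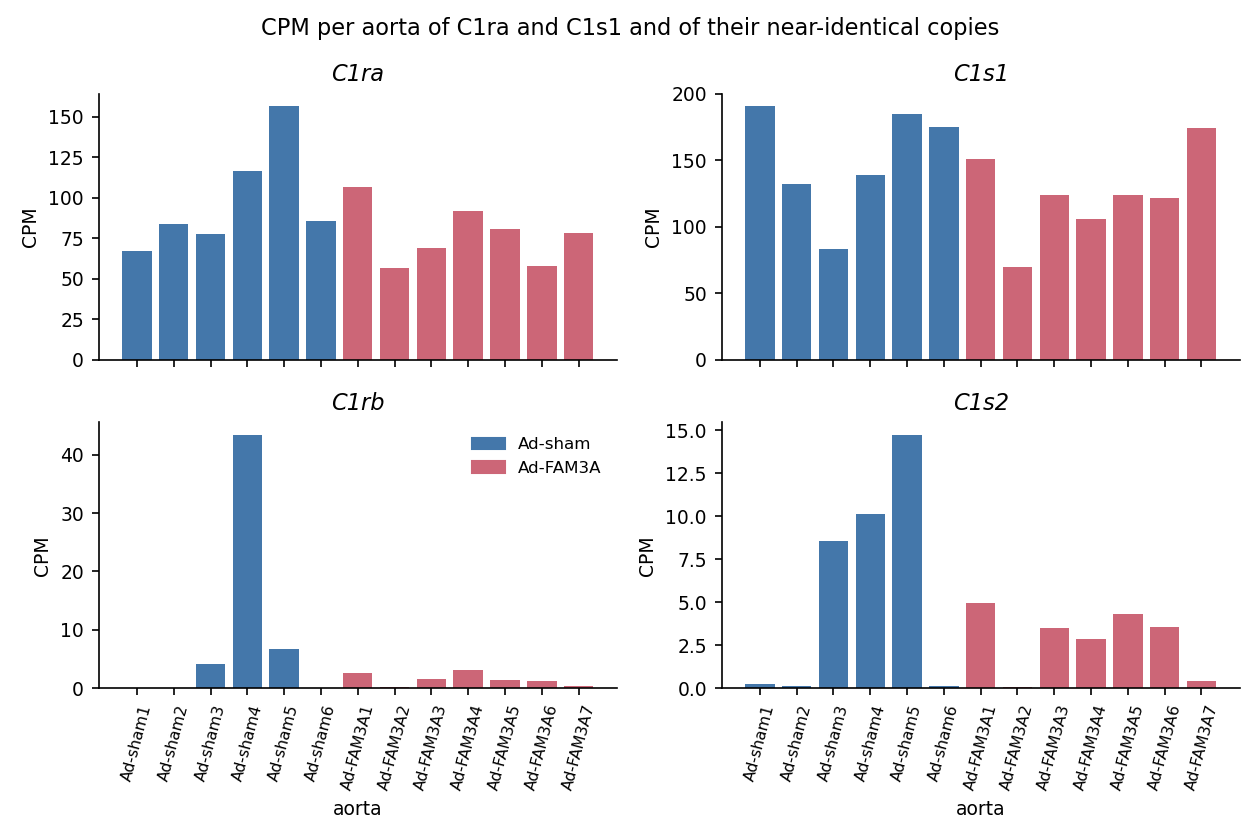
CPM of C1ra and C1s1 (top) and of their copies C1rb and C1s2 (bottom) in each aorta, as bars from 0 with Ad-sham in blue and Ad-FAM3A in red. C1ra and C1s1 have counts in every aorta, while both copies are near 0 in the same 5 aortas, and 1 aorta, Ad-sham4, holds most of the C1rb signal at 43.4 CPM.

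The wider pathway was read from a list of 58 complement genes that includes the 9, of which 43 passed the filter. None was called in either direction, 27 had a lower and 16 a higher estimate, and 4 had an unadjusted p under 0.05 by edgeR, beside 5.91% of all genes. These were C3 and C4b, lower, and Hc and Cr2, higher. The median log2 fold change of the 43 was -0.28, and that of the 34 that are not members was -0.14. Among the 8 classical pathway initiators 6 had a lower estimate, with C1rb lowest over all aortas (-2.58), a value that rested on Ad-sham4 as given above. C1qa, C1qb and C1qc, which form the recognition molecule, had log2 fold changes of -0.06, 0.23 and 0.33. Without Ad-FAM3A2 these were -0.52, -0.040 and -0.0083, so the higher estimates of C1qb and C1qc rested on that aorta. Of the lectin pathway initiators 4 of 9 were tested, with Colec12 highest (0.24) and Fcna, a ficolin, lowest (-0.51). Colec12 was 0.13 without Ad-sham3 and 0.16 without Ad-FAM3A5. Among the convertase components outside the 9, Cfd had a log2 fold change of -0.68 ± 0.38 (SE, adjusted p = 0.811), which was -0.41 without Ad-sham2. In that role Cfb was highest and C4b lowest.

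Terminal components and regulators showed no common direction. Of the terminal components 4 of 7 were tested, with Hc, the C5 gene, at 1.83 ± 0.74 (SE, adjusted p = 0.810) and C6 at -0.68. Hc had only 2 to 84 counts per aorta. It was 0.121, 0.257 and 1.33 CPM in Ad-sham and 0.147, 1.17 and 5.04 CPM in Ad-FAM3A, with the highest value in Ad-FAM3A1, the aorta with the most Alb. Without that aorta, or without Ad-FAM3A2, Ad-FAM3A4, Ad-FAM3A6 or Ad-FAM3A7, Hc did not pass the filter on low counts, so no fitted value could be given. Among fluid-phase regulators 4 of 6 had a higher estimate, from Cpn2 at -0.67 to Cfi at 0.70. The Cfi value rested on Ad-FAM3A1 and was 0.12 without it, and that of Cpn2 was -0.35 without Ad-sham1. Among membrane regulators 5 of 7 had a lower one, from Susd4 at -0.77 to Cd55 at 0.41. Cd55 was -0.27 without Ad-FAM3A6 and Ad-FAM3A7, so its direction rested on them, and Susd4 was -0.11 without Ad-sham5. The receptors split 4 and 4, from Vsig4 at -0.48 to Cr2 at 3.55 ± 1.23 (SE, adjusted p = 0.810). Cr2, a receptor of C3 fragments on B cells, was 0.859 to 3.08 CPM in Ad-sham and 0.564, 1.38 and 105 CPM in Ad-FAM3A. Its 2 high values, 105 and 49.1 CPM, came from Ad-FAM3A6 and Ad-FAM3A7. Without those 2 the log2 fold change of Cr2 was -0.38 (adjusted p = 0.899), and without Ad-sham1 that of Vsig4 was -0.11.

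**Figure D3:**
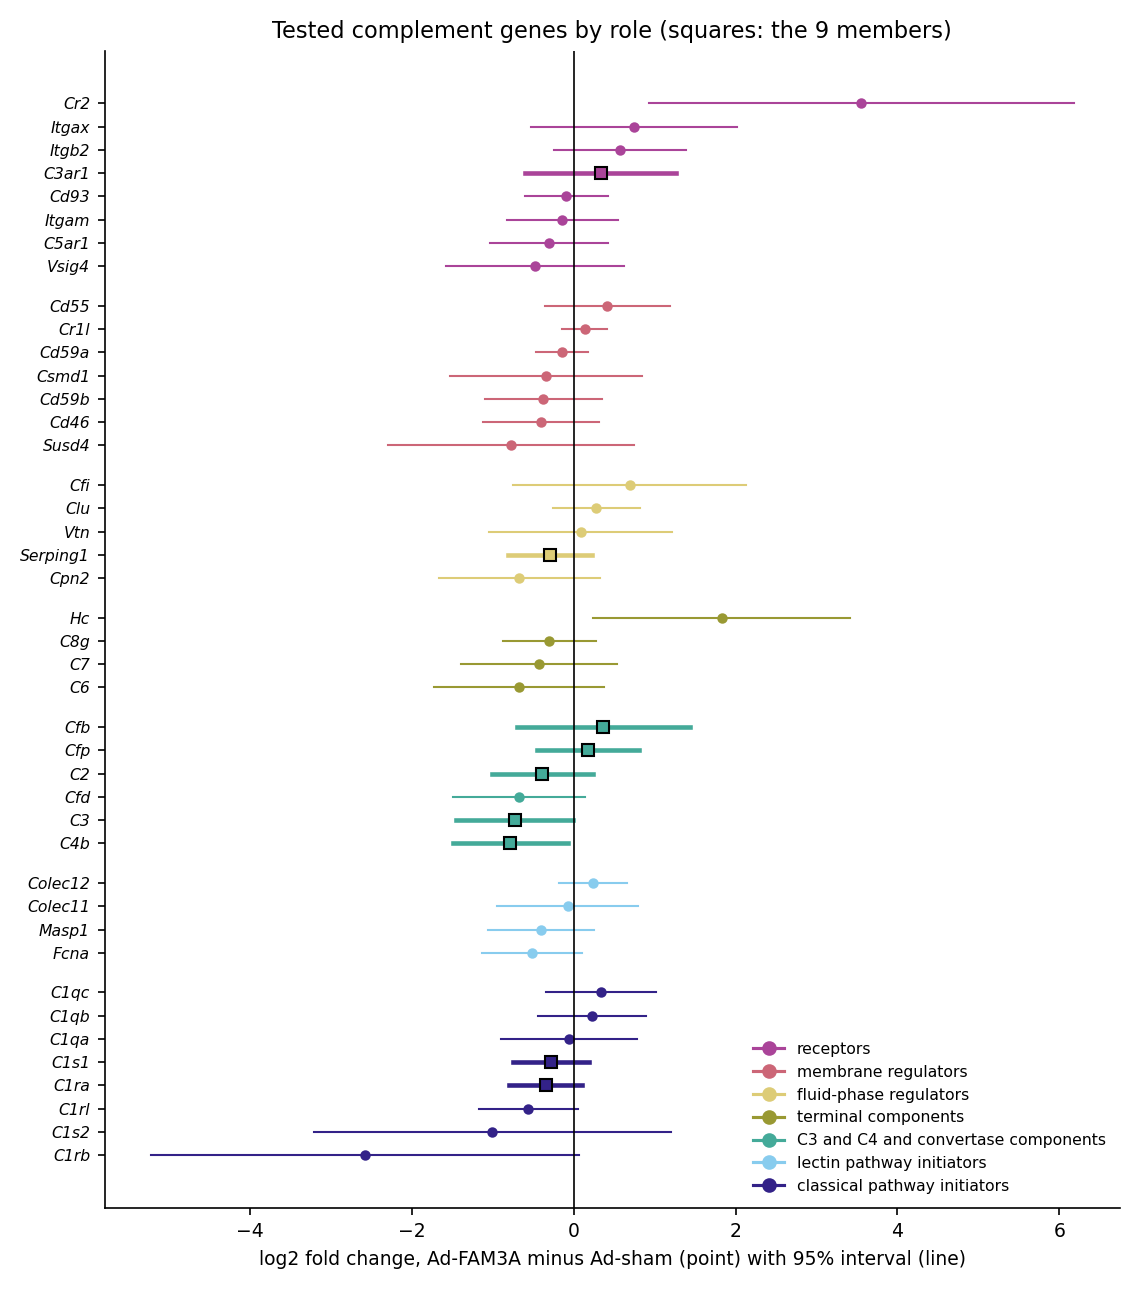
log2 fold change (Ad-FAM3A minus Ad-sham, x axis) with its 95% interval for the tested complement genes reported here, grouped and coloured by role, the members as larger squares. Intervals of C3, C4b, Hc and Cr2 exclude 0 before adjustment, and no plotted gene passed the adjusted test.

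Lists of genes that share inducers with complement were set beside it. Of 21 interferon-stimulated genes, all tested, 16 had a lower and 5 a higher estimate in Ad-FAM3A, the median was -0.11, 0 were called and 1 had an unadjusted p under 0.05. Their summed level split the Ad-FAM3A aortas: Ad-FAM3A6 and Ad-FAM3A7, at 815 and 695 CPM, were above every Ad-sham aorta (501 to 583 CPM), and the other 5, at 299 to 491 CPM, were below every one. The gene with an unadjusted p under 0.05 was Ifit3, with a log2 fold change of -0.71 ± 0.28 (SE, adjusted p = 0.810) over all aortas and -1.12 (adjusted p = 0.776) without Ad-FAM3A6 and Ad-FAM3A7. Of 10 acute phase and NF-kappaB genes 8 were tested, 4 in each direction with a median of -0.04, and Hp, which encodes haptoglobin, was at -0.93 ± 0.42 (SE, adjusted p = 0.810).

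The 9 genes did not vary as a unit across the aortas. Over the 36 pairs, 28 Pearson correlations of log2 CPM were positive, with a median of 0.28, and 4 had an adjusted p under 0.05, all positive. C3 and C4b were the closest pair, with r = 0.92 (permutation p = 2e-05, adjusted p = 0.00072) and Spearman's rho = 0.91 (permutation p = 7e-05, adjusted p = 0.00126) over 13 aortas. Their r was 0.91 within Ad-sham, 0.88 within Ad-FAM3A and 0.85 without the 2 aortas farthest from the C3 median. C1ra and Serping1 followed, with r = 0.87 (permutation p = 0.00012, adjusted p = 0.00216) and rho = 0.91 (permutation p = 4e-05, adjusted p = 0.00126). This r was 0.82 within Ad-sham, 0.92 within Ad-FAM3A and 0.85 without the 2 farthest aortas. C2 was correlated with C1s1, at r = 0.76 (permutation p = 0.0033, adjusted p = 0.0396) and rho = 0.71 (permutation p = 0.00875, adjusted p = 0.105), and with Serping1, at r = 0.73 (permutation p = 0.00512, adjusted p = 0.0461) and rho = 0.64 (permutation p = 0.021, adjusted p = 0.189). Without the 2 farthest aortas these were 0.69 and 0.58. Within Ad-sham and Ad-FAM3A they were 0.59 and 0.85 for C1s1 and 0.60 and 0.75 for Serping1. For these 2 pairs the adjusted rank correlation missed the threshold.

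Over all aortas none of Cfp, C3ar1 and Cfb had a correlation with another member that passed the threshold. Cfp had r = -0.52 with Serping1 (permutation p = 0.068, adjusted p = 0.223; rho = -0.51, permutation p = 0.0764) and r = 0.43 with C3ar1 (permutation p = 0.147, adjusted p = 0.359; rho = 0.47, permutation p = 0.108). Within Ad-sham Cfp had r = 0.85 with C3 and 0.87 with C4b, against 0.27 and 0.18 within Ad-FAM3A, and over all aortas 0.28 (permutation p = 0.357, adjusted p = 0.585; rho = 0.36, permutation p = 0.232) and 0.24 (permutation p = 0.424, adjusted p = 0.610; rho = 0.34, permutation p = 0.263). Of the 36 pairs, 24 had the same sign of r within both groups. C2 with C3ar1 was among the others, with r = 0.91 within Ad-sham, -0.50 within Ad-FAM3A and -0.12 over all aortas (permutation p = 0.688, adjusted p = 0.773; rho = 0.08, permutation p = 0.805), and these differences between the groups were not tested. The lowest level of 6 members (C3, C4b, C2, C1ra, C1s1 and Serping1) was in 1 aorta, Ad-FAM3A2. That aorta also had the highest Cfp (74.6 CPM), C1qa (233 CPM), C1qb (346 CPM) and C1qc (278 CPM) of all 13. Its macrophage markers summed to 3129 CPM, against 504 to 2114 CPM in the other 12, but the single marker Lyz2 made up 2837 CPM of that sum. Cd68 was also highest there, at 124 CPM, with Ad-FAM3A3 next at 94.6 CPM. By the mean log2 CPM of the 6 markers, which gives each the same weight, Ad-FAM3A2 was at 6.49, below Ad-sham4 (6.97), Ad-FAM3A7 (6.77) and Ad-FAM3A3 (6.69), so the list as a whole was not highest there. The part of macrophage transcripts in these values was not tested.

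**Figure D4:**
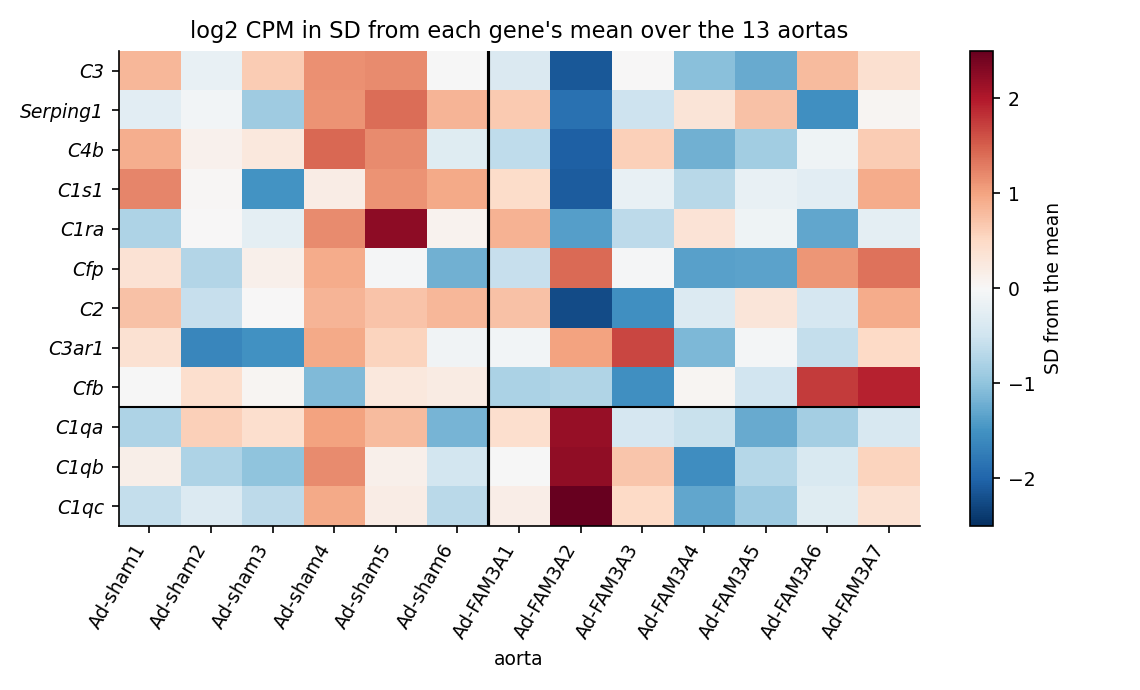
log2 CPM of the 9 complement genes and, below the line, the 3 C1q chains in each aorta, as SD from the gene's mean over 13 aortas (red above, blue below), with Ad-sham left of the vertical line. Ad-FAM3A2 is lowest for 6 of the 9 genes and highest for Cfp and the C1q chains.

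**Figure D5:**
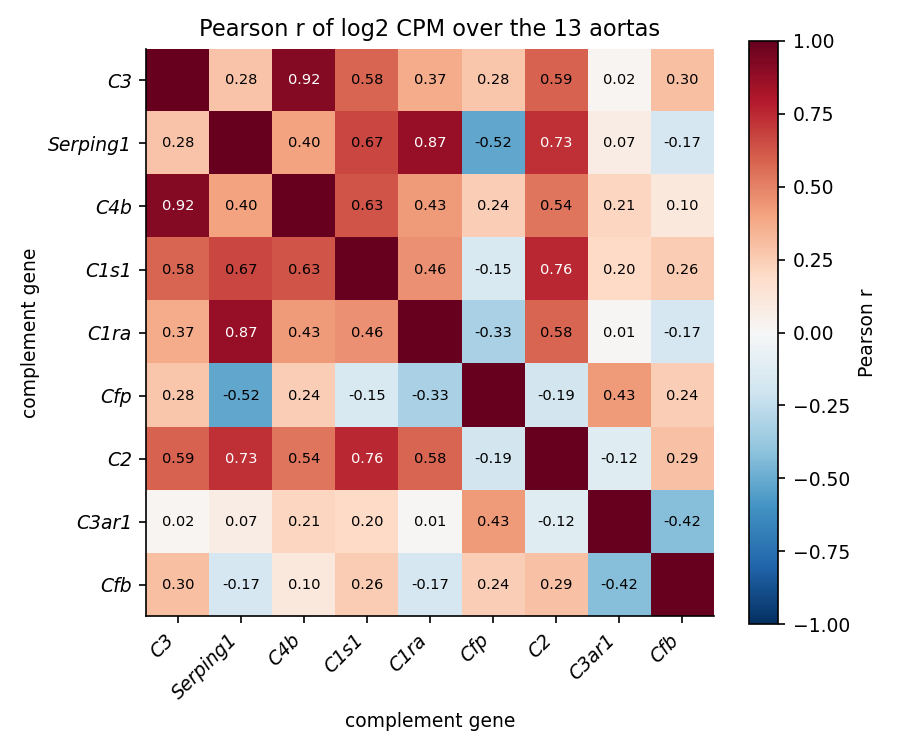
Pearson r of log2 CPM over the 13 aortas for each pair of the 9 complement genes, with genes in the order of their median level on both axes. C3 with C4b (0.92) and C1ra with Serping1 (0.87) have the highest r, and Cfp with Serping1 (-0.52) the lowest.

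Comparing the members with 5 cell type lists gave 45 further correlations, a set chosen after the values had been seen. After adjustment over the 45, 2 had an adjusted p under 0.05 by both Pearson's r and Spearman's rho. Serping1 followed the mean log2 CPM of the 6 fibroblast markers, with r = 0.90 (permutation p = 2e-05, adjusted p = 0.0009) and rho = 0.87 (permutation p = 0.00028, adjusted p = 0.0063). This r was 0.97 within Ad-sham, 0.84 within Ad-FAM3A and 0.85 without the 2 aortas farthest from the fibroblast median. C3ar1 followed the 6 macrophage markers, with r = 0.88 (permutation p = 5e-05, adjusted p = 0.00112) and rho = 0.87 (permutation p = 0.00019, adjusted p = 0.0063). That r was 0.95 within Ad-sham, 0.83 within Ad-FAM3A and 0.89 without the 2 farthest. Cfp had r = 0.69 with the macrophage list (permutation p = 0.00948, adjusted p = 0.0853; rho = 0.71, permutation p = 0.00776) and C1ra had r = 0.74 with the fibroblast list (permutation p = 0.00398, adjusted p = 0.0597; rho = 0.68, permutation p = 0.0126), both short of the threshold. C1ra passed by rank alone with the endothelium list, at rho = 0.76 (permutation p = 0.00326, adjusted p = 0.0489) and r = 0.66 (permutation p = 0.0135, adjusted p = 0.101). Serping1 also had r = 0.70 with the endothelium list (permutation p = 0.00875, adjusted p = 0.0853) and rho = 0.70 (permutation p = 0.0103), short of the threshold. No relation of C3 or C4b with any of these lists passed. The strongest of them was C3 with smooth muscle, at r = -0.61 (permutation p = 0.0276, adjusted p = 0.155) and rho = -0.68 (permutation p = 0.0141). That r was -0.20 within Ad-sham and -0.79 within Ad-FAM3A.

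The genes most like each member over the 13 aortas were found by the highest Pearson r of log2 CPM among the 15810 other genes tested in each case. They were Ggt5 (0.92) and C4b (0.92) for C3, and Pdpn (0.96) and Sned1 (0.93) for C4b. Bicc1 (0.97) and Arnt (0.96) were closest to Serping1, Col16a1 (0.95) and Gdf10 (0.94) to C1ra, and Meox2 (0.90) and Enpep (0.89) to C1s1. Tgfbr3 (0.88) and Igsf10 (0.84) were closest to C2, and 5031439G07Rik (0.90) and Birc5 (0.88) to Cfp. For C3ar1 they were Lilr4b (0.95) and Ms4a6d (0.94), and for Cfb the closest was Cr2 (0.87), which was high in Ad-FAM3A6 and Ad-FAM3A7. For the mean of the 9 standardized genes, the 5 closest non-members were Ggt5 (0.94), Enpep (0.94), Naaa (0.92), Sned1 (0.92) and Il33 (0.92). These are the highest of many correlations over 13 points and are given as a description. C4b was the sole member among these closest genes of another member, for C3.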

How the data were processed

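RNA of 13 aortas, 6 Ad-sham and 7 Ad-FAM3A, was grouped by the sample labels. Per the study's methods, the authors mapped quality-filtered reads on GRCm38 using Hisat2, and FeatureCounts gave the count of each gene. The deposited counts are whole numbers per Ensembl gene without normalization, and the annotation release is not given in the sources used here. The authors also deposited FPKM as 1 value per group, which were not used for results. All sample columns matched a sample (0 unmapped).

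The members, gene lists and motifs were chosen with earlier results of these data known. All 9 members, their near-identical copies, each listed complement gene with an unadjusted p under 0.05, the highest and lowest of each role and the genes most like a member were named, apart from a few that are not reported here. Counts were filtered by filterByExpr, scaled by TMM and compared by edgeR's quasi-likelihood test (edgeR 4.0.16, R 4.3.3), with p-values adjusted by Benjamini-Hochberg across all tested genes. SE was derived from the log2 fold change and its F statistic. log2 CPM used a prior count of 2. Permutation tests were two-sided, exact over assignments or sign flips, with 100000 resamples for correlations. Counting error alone lets a gene with 0 reads stand at up to 3 counts, or 0.140 to 0.221 CPM. Alternatives were DESeq2 1.42.0, limma-voom (limma 3.58.1), other scalings and filters, the replicate number as a block and fits without single aortas. The edgeR script was tested on simulated data. Copies were compared by the coding sequences of GENCODE M21.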

Additional observations from a re-analysis of the deposited data

Results flagged for a closer look

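Within each group, the lowest and highest aorta of 14 complement genes (the 9 members, the copies C1rb, C1s2 and C4a, and Hc and Cr2) were checked for a gap to the nearest other aorta that is large for the group's range. Of 28 groups 4 stood out, where the rule flags about 5% of groups of normally distributed values, a share not checked for CPM. Of the 18 groups of the 9 members it was 1, and the other flags came from C1rb and Hc, which were added with their values known, so the count over all 14 genes is not evidence of an excess. Cfb was 0.385 CPM in Ad-sham4, below the next Ad-sham aorta at 0.793 CPM, on 6 counts. C1rb was 43.4 CPM in Ad-sham4, against 6.73 CPM in the next Ad-sham aorta. Hc was 1.33 CPM in Ad-sham3, against 0.374 CPM in the next, and 5.04 CPM in Ad-FAM3A1, against 1.53 CPM in the next Ad-FAM3A aorta.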

How the results depend on the processing

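Over 24 alternatives (2 of them, the fit without Ad-sham3, Ad-sham6 and Ad-FAM3A3 and the fit of 12 aortas without a block, chosen after the data were seen), the count of members and of listed complement genes called stayed at 0, 6 to 8 members had a lower estimate, and the members' median log2 fold change ranged from -0.40 to -0.17. The fits without 1 aorta gave that same range. The count of members at an unadjusted p under 0.05, given as 2 of 9, was less stable: it was also 2 or 3 in 10 of the 24 alternatives and ranged from 0 to 3, with 3 in the fit with the replicate block, where C2 joined C3 and C4b at -0.62. DESeq2 called 10 genes in all, against 0 by edgeR and 0 in every other alternative. C3, C4b, C2, C1ra, C1s1 and Serping1 kept a negative estimate in all 24. Without Ad-FAM3A6 and Ad-FAM3A7 the estimates of Cfb (-0.60) and Cfp (-0.091) changed sign, and C3 was -1.15 and C4b -1.04. Without Ad-sham3, Ad-sham6 and Ad-FAM3A3, C3ar1 was -0.19 and C4b -1.15. The cause was not tested.

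The labels give both groups replicate numbers 1 to 6, without saying that a number is shared. Correlations of same-numbered aortas' deviations from their group means ran from -0.33 to 0.45, with 3 of 6 above 0.1 and 1 of 6 Ad-sham aortas closest to its own number, so the numbers were not taken as pairs. With the replicate number as a block on those 12 aortas, 0 members were called, C3 was -0.98, C4b -1.01, Cfb -0.23 and Cfp -0.027, and the same 12 aortas without the block gave -0.82 for C3 and -0.94 for C4b. TPM in place of FPKM multiplied all members of an aorta by 1 factor, so their order within it is the same by construction. Of 144 recomputed member correlations, 52 moved by 0.2 or more and 0 of the called pairs changed sign. Cfb, at 4 to 42 counts, Hc and C4a are limited by depth. The fits of other complement genes without named aortas and the levels on unshared length were also chosen after the data were seen.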

Other observations

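The complement genes C9, C8a, C8b and C4bp were near 0 in most aortas. C9, a pore-forming terminal component, had 58 counts in Ad-FAM3A1, 17 in Ad-FAM3A2, 13 in Ad-FAM3A4 and at most 10 in the other 10 aortas. C8a and C8b, which also join the terminal pore, had 63 and 42 counts in Ad-FAM3A1, and C4bp, a regulator of C4 cleavage, had 43 there. C9, C8a, C8b and C4bp did not pass the filter on low counts and were not compared between groups. The 6 hepatocyte markers summed to 379 CPM in Ad-FAM3A1, 105 in Ad-FAM3A2 and 73.6 in Ad-FAM3A4, the 3 highest of the 13 aortas.

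A search of all 54532 genes was made, after the pattern was seen, for others whose lowest count in the 8 aortas with 8 or more counts of C1rb exceeded the highest count in the other 5 by over 2-fold (after adding 1 count to each). It returned 4 genes: C1rb, C1s2, Pianp (chr6:124996694-125003096), which lies on the same chromosome as both, and Gm47283 on chromosome Y. Pianp had 369 to 2287 counts in the 8 aortas and 17 to 109 in the 5. No gene met the rule in the opposite direction. Since the aortas were split by C1rb itself, this is a description, and its cause was not tested.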
